A study of Homo sapiens with 6 samples.

Results

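The genes described here encode the proteins that license DNA replication origins and build the replication fork. They are 48 genes chosen by name, from the origin recognition complex to the enzymes that join Okazaki fragments. All 48 were found in the count table of 57905 genes, and all 48 were among the 16622 genes that passed the filter on low counts and were tested. In addition, 46 of them had a length-scaled value in a second deposited table, in which ORC3 and PRIM2 were not listed.

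NALM6 is a human leukemia line of B cell precursor type. The compound THZ1 binds covalently to CDK7, a kinase of the transcription machinery that also activates the cell cycle kinases. RNA was sequenced from NALM6 cells given the solvent DMSO (3 libraries) or 500 nM of THZ1 (3 libraries), each for 24 h. All libraries are of 1 cell line, the labels do not say whether the replicates were separate cultures, and p-values therefore measure the spread between these libraries. The libraries held 11015480 to 11164840 counts on genes with DMSO and 7876402 to 8314306 with THZ1, and the lowest count of any of the 48 genes in any library was 13, for POLD4. All 10 B-lineage markers examined passed the filter, and 0 of 5 T-cell markers did. Of the B-lineage markers 6 fell, 3 rose and 1 did not pass the test, with log2 fold changes from −2.56 to 2.53, and the transcription factor PAX5 went from 480 to 598 CPM (counts scaled to library size) with DMSO to 132 to 140 CPM with THZ1. Of the myeloid and erythroid markers, 4 of 5 and 1 of 5 passed the filter, and 3 of these 5 rose from below 1 CPM. CSF1R was at 0.0820 to 0.165 CPM with DMSO and 4.95 to 7.89 CPM with THZ1, CD14 at 0.579 to 0.738 and 7.63 to 9.83 CPM, and ALAS2 at 0 to 0.0827 and 2.81 to 3.29 CPM. With DMSO these 3 had 0 to 9 counts per library, below the filter's minimum of 10. They passed the filter only through their THZ1 libraries, so the direction of their change followed from it. Of the other myeloid markers that passed the filter, LYZ was called lower (log2 fold change −0.83, with overlapping groups) and MPO did not pass the test (0.16). The part of these markers in the results was not tested.

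In G1 phase the origin recognition complex (ORC), CDC6 and CDT1 load the ring-shaped MCM2-7 helicase onto DNA, a step called licensing, and geminin blocks it for the rest of the cycle. In S phase the kinase CDC7 with its partner DBF4 turns loaded rings into active helicases that carry CDC45 and the GINS proteins. Polymerase alpha with primase then starts each strand, polymerases epsilon and delta extend it behind the sliding clamp PCNA, and FEN1, DNA2, RNase H2 and DNA ligase I finish the lagging strand. Many of these genes are targets of the E2F factors and peak together around the start of S phase. A bulk library cannot tell fewer cells in S phase from less RNA per cell.

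Most replication genes had less RNA with THZ1 relative to the other genes of their libraries. All values are scaled to the library, so the amount of RNA per cell cannot be read from them. A fall or a rise is meant in this relative sense throughout. By the quasi-likelihood test of edgeR, adjusted after Benjamini and Hochberg across every gene tested, 42 of the 48 genes (87.5%) fell at an adjusted p under 0.05, whereas 41.1% of all genes tested did. Only CDT1, MCM2, POLD4 and POLE3 rose, 8.33% of the 48 against 43.5% of all genes tested, and ORC1 and ORC4 did not pass the test. A log2 fold change of −1.5 or less was reached by 18 genes (37.5%, against 12.9% of all genes tested). The median log2 fold change was −1.16, with quartiles of −1.77 and −0.56, and the median of all genes tested was 0.03, with 19.2% of them below −1.16. In 46 of the 48 genes the values of the treatments did not overlap, as in 84.7% of all genes tested, so separation of the groups was common in these data. The share of the counts of tested genes that fell on the 48 genes was 0.738 to 0.748% with DMSO and 0.425 to 0.430% with THZ1. Directions were read relative to the scaling: the log2 fold changes of the genes shared with each alternative moved by a median of 0.19 upward with upper quartile factors, 0.13 upward when a minimum of 10 counts was asked of each library, and 0.25 downward with library sizes alone, and the genes whose call depended on it are named where they are described.

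**Figure D1:**
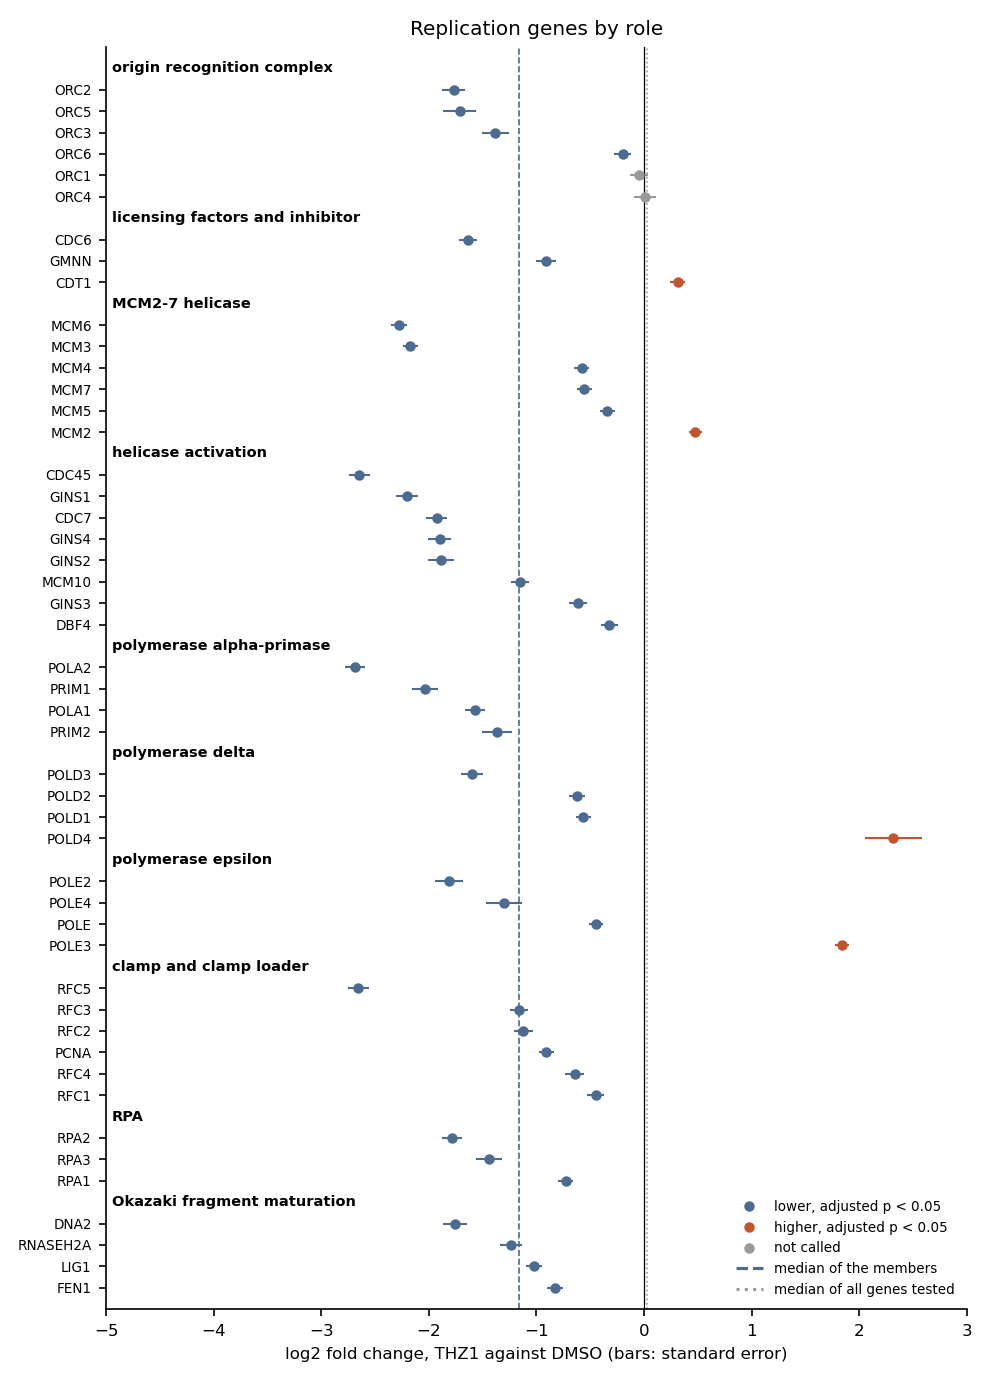
Log2 fold change of each of the 48 genes with THZ1 against DMSO (horizontal axis; points are fitted values and bars standard errors worked back from the test statistic, 3 libraries per treatment), grouped by role on the vertical axis. The dashed line marks the median of the 48 genes at −1.16 and the dotted line that of all genes tested at 0.03; POLD4, POLE3, MCM2 and CDT1 lie to the right of zero and 42 genes lie to the left in blue.

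The sequence upstream of the start was examined because these genes moved largely together and because E2F sites and CCAAT boxes are known from such promoters. Of the 48 genes, 41 had an entry in the RefSeq promoter table (GRCh38.p14), and the 250 bases before the start were searched on both strands. An E2F-type site (any of TTTCCCGC, TTTGGCGC, TTTCGCGC and TTTGCCGC) was found in 13 of the 41 promoters (31.7%), against 2.79% of all 35116 promoters and 4.43% of the 9719 promoters of protein-coding genes tested. These were the promoters of ORC3, CDT1, MCM3, MCM6, MCM7, GINS2, POLA1, POLA2, POLE, POLE4, PCNA, RFC3 and LIG1. A CCAAT box was found in 23 of 41 (56.1%, against 32.0% of all promoters and 35.4% of those of protein-coding genes tested). An E box (CACGTG) was found in 4 of 41 (9.76%, against 6.34% and 9.0%), a share close to the second background. TTTGAA, the core of the CHR element of many G2/M genes, was found in 0 of 41 (against 13.3% and 8.12%). No match of one of these motifs overlapped a match of another in these promoters.

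The E2F-type letters were found in genes that fell much and in genes that fell little. They stood in 5 of the 14 promoters of genes that fell by 1.5 or more (35.7%), in 7 of the 21 of genes that fell by less (33.3%) and in 1 of the 6 of genes that rose or did not pass the test, that of CDT1. CCAAT boxes stood in 10 (71.4%), 11 (52.4%) and 2 (33.3%) of the promoters of these groups, and the difference was not tested. The promoters of the 3 lowest and the 3 highest genes by log2 fold change are shown because they mark the ends of the range, and that of MCM6, added after its matches were seen, because 2 of its sites are the same 12 bases. They are written from the most distant base to the last base before the start, 250 bases each, and capitals mark the matches.
POLA2, chr11:65261712-65261961, plus strand: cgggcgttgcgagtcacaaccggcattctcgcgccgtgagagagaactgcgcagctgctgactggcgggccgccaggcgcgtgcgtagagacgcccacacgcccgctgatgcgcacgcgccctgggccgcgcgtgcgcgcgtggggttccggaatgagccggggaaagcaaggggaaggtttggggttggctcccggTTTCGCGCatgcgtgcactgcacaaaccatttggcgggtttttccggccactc
RFC5, chr12:118016453-118016702, plus strand: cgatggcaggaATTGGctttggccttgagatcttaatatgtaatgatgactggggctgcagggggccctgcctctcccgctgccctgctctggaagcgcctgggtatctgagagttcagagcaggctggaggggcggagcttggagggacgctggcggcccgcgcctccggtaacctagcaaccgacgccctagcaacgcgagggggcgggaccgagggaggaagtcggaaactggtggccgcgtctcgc
CDC45, chr22:19479670-19479919, plus strand: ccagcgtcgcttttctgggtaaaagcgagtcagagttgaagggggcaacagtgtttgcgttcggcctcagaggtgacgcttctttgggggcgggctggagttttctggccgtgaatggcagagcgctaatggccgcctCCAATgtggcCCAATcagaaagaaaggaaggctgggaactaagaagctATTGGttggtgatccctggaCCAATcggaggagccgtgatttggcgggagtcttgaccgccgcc
MCM6, chr2:135876444-135876693, minus strand: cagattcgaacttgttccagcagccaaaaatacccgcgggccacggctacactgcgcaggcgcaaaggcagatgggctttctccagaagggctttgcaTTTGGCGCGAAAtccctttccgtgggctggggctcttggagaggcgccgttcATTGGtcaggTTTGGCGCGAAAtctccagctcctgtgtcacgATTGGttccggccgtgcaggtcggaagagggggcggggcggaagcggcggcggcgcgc
POLE3, chr9:113410750-113410999, minus strand: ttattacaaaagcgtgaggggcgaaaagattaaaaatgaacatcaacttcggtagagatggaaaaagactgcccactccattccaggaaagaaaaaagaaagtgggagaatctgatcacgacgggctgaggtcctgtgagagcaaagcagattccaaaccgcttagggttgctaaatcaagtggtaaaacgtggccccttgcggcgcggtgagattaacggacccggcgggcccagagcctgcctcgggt
POLD4, chr11:67353597-67353846, minus strand: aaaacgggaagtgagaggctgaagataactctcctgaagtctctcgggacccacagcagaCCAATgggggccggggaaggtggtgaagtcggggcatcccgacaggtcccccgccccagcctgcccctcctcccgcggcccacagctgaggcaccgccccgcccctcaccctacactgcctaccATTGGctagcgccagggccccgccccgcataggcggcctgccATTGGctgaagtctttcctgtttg
MCM2, chr3:127598161-127598410, plus strand: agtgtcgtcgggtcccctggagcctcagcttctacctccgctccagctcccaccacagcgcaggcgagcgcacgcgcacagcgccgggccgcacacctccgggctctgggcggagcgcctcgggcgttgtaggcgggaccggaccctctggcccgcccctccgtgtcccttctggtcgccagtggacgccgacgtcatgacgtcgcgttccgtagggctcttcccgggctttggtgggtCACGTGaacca

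POLA2 holds 1 E2F-type match, 53 to 46 bases before its start. CDC45 holds 4 CCAAT boxes, 3 of them within 102 bases of the start, and no E2F-type match. In MCM6 the run TTTGGCGCGAAA, which carries an E2F-type match on each strand, ends 141 and 79 bases before the start, and CCAAT boxes stand between and after the runs. Of the genes that rose, POLD4 holds 3 CCAAT boxes, MCM2 an E box 11 to 6 bases before its start, and POLE3 no match. Bases shortly after the POLE3 start were found in no GENCODE transcript of that gene on either strand, so its window is uncertain. For the other promoters shown, such bases were found on the gene's strand. A match is only a run of letters, and no match says only that these letters are not in this window.

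The origin recognition complex, the ATPase assembly that marks origins, did not move as a unit. Of its 6 genes 4 fell and 2 did not pass the test, with a median log2 fold change of −0.79. ORC2, a core subunit, gave 52.7, 56.5 and 54.3 CPM with DMSO and 14.99, 18.6 and 14.4 CPM with THZ1. Every DMSO library was far above every THZ1 library, and ORC2 fell 3.41-fold (log2 fold change −1.77, SE 0.108, adjusted p = 7.1e-16). ORC5 (log2 fold change −1.71, adjusted p = 5.9e-12) and ORC3 (−1.38, adjusted p = 8.6e-12) fell as well.

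ORC1, the subunit whose abundance is known to change over the cell cycle, gave 69.6, 71.8 and 67.3 CPM with DMSO and 67.7, 68.1 and 66.3 CPM with THZ1. The groups overlapped, and the log2 fold change was −0.05 (SE 0.0793, adjusted p = 0.586). Its direction turned under some scalings and it was called lower with library sizes alone (−0.29, adjusted p = 0.00139). ORC4 gave 28.1, 30.6 and 26.0 CPM with DMSO and 27.1, 28.1 and 30.1 CPM with THZ1, again overlapping, with a log2 fold change of 0.01 (SE 0.106, adjusted p = 0.935) whose sign also depended on the scaling. ORC4 was called lower with library sizes alone (−0.24, adjusted p = 0.0427) and by limma on the deposited log2 FPKM (−0.39, adjusted p = 0.0052). ORC6, the smallest subunit, gave 101.9, 105.2 and 110.5 CPM with DMSO and 97.1, 86.2 and 93.3 CPM with THZ1. These groups did not overlap, but the gap was small (log2 fold change −0.20, SE 0.0759, adjusted p = 0.0166), and the call was lost without THZ1 replicate 2 (adjusted p = 0.089). It was also lost with median-ratio (RLE) factors (adjusted p = 0.11), with DESeq2 (0.15), with a minimum of 10 counts per library (0.416) and with upper quartile factors (0.949).

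The loading factors and their inhibitor went different ways. CDC6, the ATPase that joins ORC to bring in the helicase, gave 100.3, 100.4 and 100.7 CPM with DMSO and 33.4, 32.0 and 31.4 CPM with THZ1. It was nearly constant within each treatment and fell 3.11-fold (log2 fold change −1.64, SE 0.0842, adjusted p = 8.9e-18). GMNN, which encodes geminin, the protein that binds CDT1 and stops relicensing, gave 75.7, 75.8 and 88.8 CPM with DMSO and 43.9, 40.4 and 43.3 CPM with THZ1. All THZ1 libraries were below all DMSO libraries (log2 fold change −0.91, SE 0.0886, adjusted p = 5.3e-11).

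CDT1, the partner that delivers MCM2-7, gave 147, 135 and 156 CPM with DMSO and 176, 179 and 190 CPM with THZ1. The groups did not overlap, and CDT1 rose 1.24-fold (log2 fold change 0.31, SE 0.0717, adjusted p = 0.00019). The call was lost with library sizes alone (log2 fold change 0.07, adjusted p = 0.365) and on the deposited FPKM values (limma, adjusted p = 0.286).

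The 6 genes of the MCM2-7 ring, whose proteins occur in equal numbers in the complex, fell by very different amounts. Of them 5 fell and MCM2 rose, with a median log2 fold change of −0.57. MCM6 gave 304, 315 and 314 CPM with DMSO and 63.9, 60.1 and 67.8 CPM with THZ1. MCM3 gave 513, 501 and 538 CPM with DMSO and 108, 116 and 120 CPM with THZ1. Both were far lower in every THZ1 library, MCM6 by 4.86-fold (log2 fold change −2.28, SE 0.0740, adjusted p = 6.7e-23) and MCM3 by 4.51-fold (−2.17, SE 0.0713, adjusted p = 9.0e-23).

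MCM4, MCM7 and MCM5 fell less, with log2 fold changes of −0.58, −0.55 and −0.34 and adjusted p-values of 2.0e-09, 4.2e-09 and 2.5e-05. MCM5 was the least lowered, at 79.0% of its DMSO level. MCM2, which carries a histone-binding tail and is a substrate of CDC7, gave 405, 398 and 403 CPM with DMSO and 572, 547 and 563 CPM with THZ1. Its groups were well separated in the direction opposite to the rest of the ring, and it rose 1.39-fold (log2 fold change 0.48, SE 0.0646, adjusted p = 5.1e-08). MCM2 was higher with every scaling of the counts, and the call was lost only on log2(FPKM + 0.1) (log2 fold change 0.18, adjusted p = 0.0537).

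**Figure D2:**
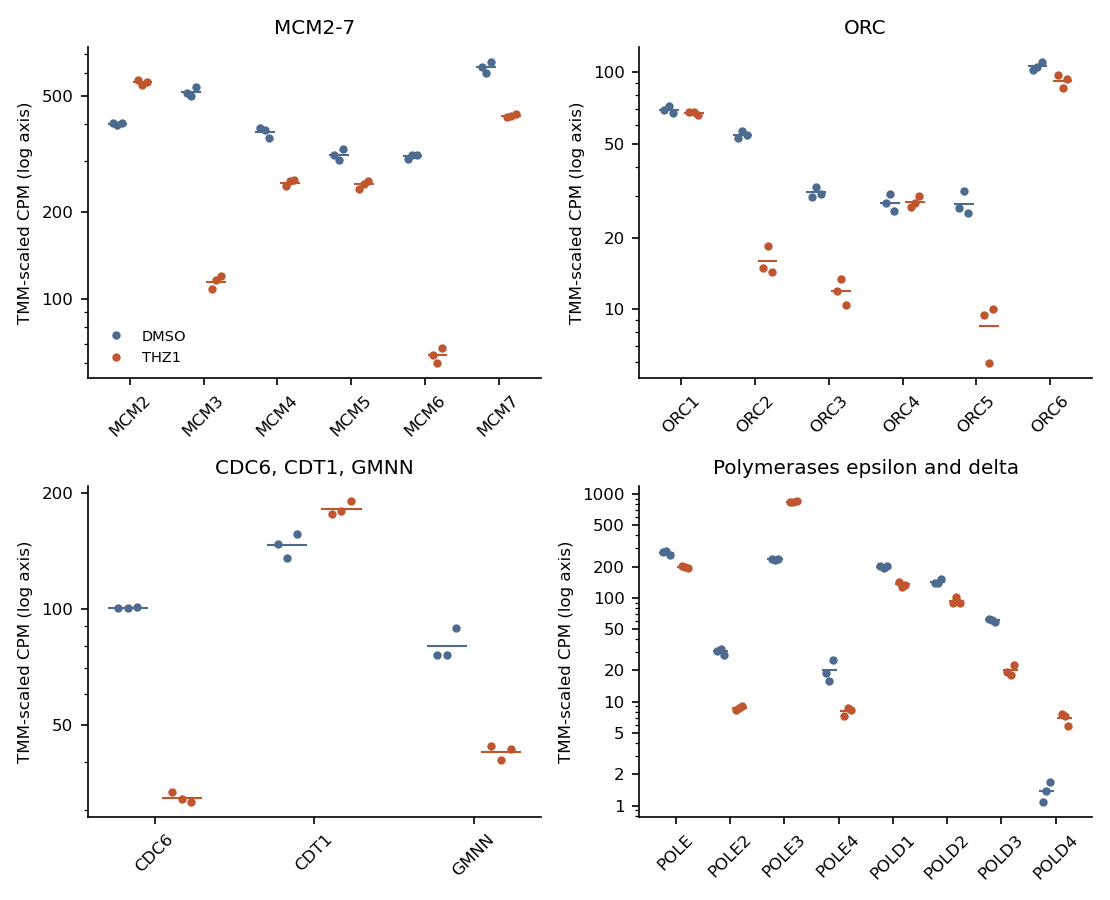
Library-scaled CPM of each library on log axes (blue, DMSO; orange, THZ1; points are libraries, 3 per treatment, and lines are means) for the MCM2-7 genes, the ORC genes, CDC6, CDT1 and GMNN, and the subunits of polymerases epsilon and delta. The means of MCM3 and MCM6 drop from 517 and 311 CPM to 115 and 63.9 CPM while that of MCM2 rises from 402 to 560 CPM, ORC1 and ORC4 overlap between treatments, and POLE3 rises from 234 to 839 CPM.

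The genes that turn loaded rings into moving helicases all fell, 8 of 8, with a median log2 fold change of −1.89. CDC45, a subunit of the active helicase, gave 101.8, 96.6 and 116 CPM with DMSO and 16.6, 15.8 and 17.8 CPM with THZ1. No library came near the other treatment, and CDC45 was left at 16.0% of its DMSO level (log2 fold change −2.65, SE 0.1, adjusted p = 3.6e-21). Of the 4 GINS genes, GINS1 (log2 fold change −2.20), GINS4 (−1.90) and GINS2 (−1.89) fell together, with adjusted p-values of 3.8e-15 or less. GINS3 gave 70.9, 67.2 and 70.3 CPM with DMSO and 43.5, 47.5 and 45.2 CPM with THZ1, separated but closer together (log2 fold change −0.61, SE 0.0843, adjusted p = 7.1e-08).

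CDC7, the catalytic subunit of the kinase that starts origins, gave 79.0, 82.9 and 75.2 CPM with DMSO and 24.1, 20.2 and 17.9 CPM with THZ1. DBF4, the subunit without which CDC7 is inactive, gave 92.4, 94.8 and 87.1 CPM with DMSO and 71.7, 71.6 and 76.1 CPM with THZ1. Both fell in all libraries, CDC7 by 3.81-fold (log2 fold change −1.93, SE 0.101, adjusted p = 1.6e-17) and DBF4 by only 1.25-fold (−0.32, SE 0.0775, adjusted p = 0.00033). The call of DBF4 was lost with upper quartile factors (adjusted p = 0.12). MCM10, a factor that helps to activate the helicase, fell by 1.15 on the log2 scale (adjusted p = 4.9e-14).

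All 4 genes of polymerase alpha and primase, the complex that lays the RNA-DNA primer, fell, with a median log2 fold change of −1.81. POLA2, the regulatory subunit that links polymerase and primase, was the lowest of all 48 genes. It gave 94.2, 99.7 and 101.8 CPM with DMSO and 15.9, 15.8 and 14.2 CPM with THZ1. No THZ1 library came near a DMSO library, and POLA2 fell 6.44-fold (log2 fold change −2.69, SE 0.0970, adjusted p = 1.0e-21). PRIM1, the catalytic primase subunit, fell by 2.04 and POLA1, the polymerase itself, by 1.57 on the log2 scale, with adjusted p-values of 4.6e-16 or less. PRIM2, the large primase subunit and the least lowered, gave 28.9, 35.2 and 26.8 CPM with DMSO and 13.4, 13.0 and 8.82 CPM with THZ1, without overlap (log2 fold change −1.37, SE 0.142, adjusted p = 2.3e-10).

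In polymerase delta, which extends the lagging strand, 3 of 4 genes fell and 1 rose. POLD3, an accessory subunit, gave 62.6, 60.9 and 59.0 CPM with DMSO and 19.2, 18.3 and 22.6 CPM with THZ1, and all THZ1 libraries lay below (log2 fold change −1.60, SE 0.101, adjusted p = 1.5e-15). The catalytic POLD1 and the accessory POLD2 fell to 67.7% and 65.1% of their DMSO levels (adjusted p = 8.8e-09 and 6.8e-09). POLD4, the smallest subunit, was scarce and gave 1.08, 1.39 and 1.69 CPM with DMSO and 7.63, 7.34 and 5.88 CPM with THZ1, from 13 to 20 reads per DMSO library and 44 to 58 per THZ1 library. It rose in every library (log2 fold change 2.32, SE 0.264, adjusted p = 1.6e-09), and the difference was 0.88 on the deposited log2 FPKM scale (limma, adjusted p = 0.00182), which holds an added 1 and narrows low values. POLD4 shares 650 exonic bases on the same strand with ENSG00000256514, which holds 0 counts. The part of this overlap in the low counts of POLD4 was not tested.

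In polymerase epsilon, which extends the leading strand, 3 of 4 genes fell and POLE3 rose. POLE2, the second subunit of the core, gave 31.0, 32.5 and 28.2 CPM with DMSO and 8.28, 8.72 and 9.09 CPM with THZ1, with no library near the other group (log2 fold change −1.81, SE 0.131, adjusted p = 4.3e-14). The catalytic POLE gave 276, 281 and 257 CPM with DMSO and 204, 199 and 195 CPM with THZ1, a smaller but clean drop (−0.45, SE 0.0671, adjusted p = 3.8e-07). POLE4, the partner of POLE3 in a histone-fold pair, fell by 1.30 on the log2 scale (adjusted p = 1.5e-08).

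POLE3, whose protein also belongs to a chromatin-remodeling complex, gave 236, 230 and 238 CPM with DMSO and 835, 832 and 850 CPM with THZ1. Its libraries were tight within each treatment, and it rose 3.58-fold (log2 fold change 1.84, SE 0.0665, adjusted p = 1.1e-21). POLE3 is a short gene of 3441 bases on chromosome 9 (GRCh37, GENCODE), and 104 bases of its exons overlap those of C9orf43 on the opposite strand. C9orf43 rose as well, from 48.7 ± 4.76 to 225 ± 3.57 CPM (SD, n = 3, log2 fold change 2.21, adjusted p = 5.9e-22). How reads in the shared bases were counted depends on the strand setting. The strand setting is not given in the sources used here, and its part in the values of both genes was not tested.

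All 6 genes of the sliding clamp and its loader fell, with a median log2 fold change of −1.02. RFC5, a small loader subunit that is also part of the alternative loaders, gave 109.8, 109.5 and 109.5 CPM with DMSO and 15.1, 19.9 and 17.1 CPM with THZ1. It fell 6.31-fold, close to POLA2 and CDC45 (log2 fold change −2.66, SE 0.0975, adjusted p = 1.6e-21). RFC1, the large subunit, gave 127.7, 140.2 and 124.2 CPM with DMSO and 93.6, 100.1 and 93.2 CPM with THZ1, the mildest fall of the group (−0.45, SE 0.0749, adjusted p = 2.0e-06). PCNA, the clamp that holds the polymerases on DNA, gave 473, 432 and 490 CPM with DMSO and 250, 238 and 256 CPM with THZ1. It ended at 53.3% of its DMSO level (log2 fold change −0.91, adjusted p = 1.6e-13), and RFC3, RFC2 and RFC4 fell by 1.16, 1.12 and 0.65 on the log2 scale.

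All 3 subunit genes of RPA, the trimer that coats single-stranded DNA, fell. RPA2, the subunit that checkpoint kinases phosphorylate, gave 111.9, 92.9 and 114.9 CPM with DMSO and 30.4, 31.4 and 30.9 CPM with THZ1, a clear separation (log2 fold change −1.79, SE 0.0927, adjusted p = 1.2e-17). RPA1, the large DNA-binding subunit, gave 216, 211 and 208 CPM with DMSO and 131, 118 and 135 CPM with THZ1, also separate (−0.73, SE 0.0711, adjusted p = 5.7e-11). RPA3 lay between them at −1.44.

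The 4 genes of Okazaki fragment maturation fell as well, with a median log2 fold change of −1.13. DNA2, the nuclease-helicase that trims long flaps, gave 55.3, 58.3 and 46.8 CPM with DMSO and 16.8, 16.2 and 14.3 CPM with THZ1, and was lower in every THZ1 library (log2 fold change −1.76, SE 0.112, adjusted p = 2.1e-15). FEN1, the main flap nuclease, gave 181, 181 and 213 CPM with DMSO and 110, 109 and 105 CPM with THZ1, without overlap (−0.83, SE 0.0753, adjusted p = 1.2e-11). RNASEH2A, the catalytic subunit of the RNase that removes RNA from primers, fell by 1.24 and LIG1, the ligase that seals the nicks, by 1.02 on the log2 scale (adjusted p = 5.5e-13 and 1.6e-13).

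The ratios of 4 pairs of partner genes were followed by library. The log2 ratio of CDT1 to GMNN was 0.957, 0.833 and 0.815 with DMSO and 2.0, 2.14 and 2.13 with THZ1, a shift of 1.22 toward the loader over its inhibitor. The log2 ratio of CDC7 to DBF4 was −0.227, −0.193 and −0.211 with DMSO and −1.57, −1.81 and −2.07 with THZ1, a shift of −1.61. For both pairs every THZ1 library lay outside the range of the DMSO libraries.

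The log2 ratio of POLE to POLE3 was 0.228, 0.293 and 0.111 with DMSO and −2.03, −2.06 and −2.12 with THZ1, a shift of −2.28. The log2 ratio of ORC1 to ORC2 was 0.401, 0.345 and 0.311 with DMSO and 2.16, 1.86 and 2.18 with THZ1, a shift of 1.72. In none of the 4 ratios did the treatments overlap, but single genes were separated as well in 84.7% of all genes tested. No share was computed for other pairs. Each of the 4 ratios gave p = 0.1 in a two-sided exact permutation test, the smallest that 3 libraries against 3 allow (adjusted p = 0.1 over the 4 ratios). These ratios compare reads of genes of different length, so their change between treatments can be read but not their level.

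**Figure D3:**
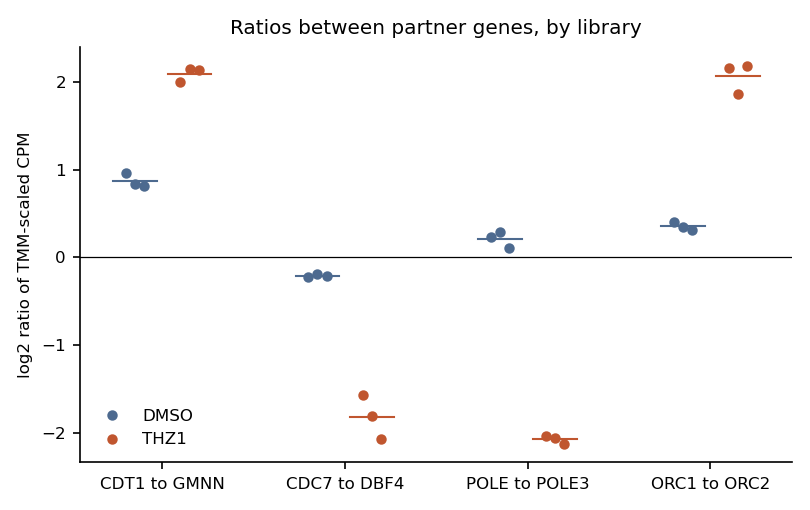
Log2 ratio of library-scaled CPM (vertical axis) between partner genes in each library (blue, DMSO; orange, THZ1; points are libraries, 3 per treatment, and lines are means). The CDT1 to GMNN and ORC1 to ORC2 ratios rise from means of 0.868 and 0.352 to 2.09 and 2.07, and the CDC7 to DBF4 and POLE to POLE3 ratios drop from −0.21 and 0.211 to −1.82 and −2.07.

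Levels between genes were compared only on the deposited log2 FPKM scale, which accounts for gene length. Among MCM2-7, the highest subunit with DMSO was MCM7 at 8.75 ± 0.0406 (SD, n = 3) and the lowest MCM5 at 6.96 ± 0.00759, a distance of 1.80 ± 0.0416. With THZ1 the highest was MCM2 at 8.18 ± 0.00945 and the lowest MCM6 at 5.37 ± 0.0935, a distance of 2.80 ± 0.0961. MCM3, level with MCM7 under DMSO at 8.73 ± 0.0646, came to 6.33 ± 0.0756, beside MCM5 at 6.46 ± 0.0435.

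The distance between the highest and the lowest subunit, as a mean over 3 libraries, was also larger with THZ1 for GINS (0.748 ± 0.185 with DMSO, 1.58 ± 0.240 with THZ1) and for the clamp loader (0.872 ± 0.140 and 1.67 ± 0.210). In polymerase epsilon it went from 3.35 ± 0.187 to 6.77 ± 0.0361, with POLE3 as the highest subunit under both treatments. In polymerase delta it narrowed from 5.28 ± 0.216 to 3.71 ± 0.182, with POLD1 the highest and POLD4 the lowest under both. In RPA it was 2.10 ± 0.157 with DMSO and 2.29 ± 0.161 with THZ1, a change close to the spread between libraries. The sorted values of this table were almost identical between libraries of 1 treatment, differing by a median of 0.0015 to 0.0017, a step that the sources used here do not describe, so these SDs may be too small.

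**Figure D4:**
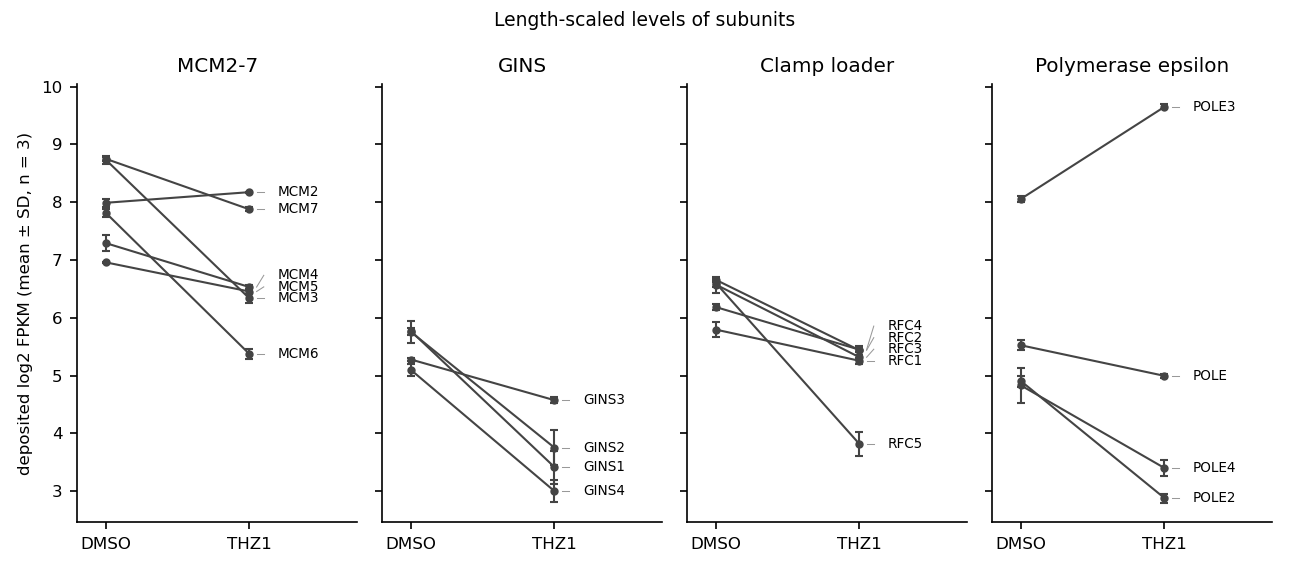
Deposited log2 FPKM (vertical axis; points are means and bars SDs of 3 libraries) of the subunits of MCM2-7, GINS, the clamp loader and polymerase epsilon under DMSO and THZ1 (horizontal axis). The lines fan out from left to right: the distance from the highest to the lowest subunit grows from 1.80 to 2.80 for MCM2-7 and from 3.35 to 6.77 for polymerase epsilon.

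Genes that work beside the fork were examined in the same fit. Of 38 further origin and fork factors, 32 fell (84.2%, against 41.1% of all genes tested), 4 rose and 2 did not pass the test. Their median log2 fold change was −0.94. WDHD1, which ties polymerase alpha to the helicase, fell most (log2 fold change −2.61, adjusted p = 9.1e-20), and RNASEH1, a nuclease for RNA-DNA hybrids, rose most (1.67, adjusted p = 1.5e-15). Of 10 genes of nucleotide supply 9 fell (90.0%) and 1 rose, with a median of −1.32. They ran from SAMHD1 at −2.62 (adjusted p = 6.0e-13) to RRM2B, the p53-responsive ribonucleotide reductase subunit, at 0.55 (adjusted p = 0.00015). SAMHD1 is a dNTP hydrolase, which removes dNTPs rather than supplying them, and it had only 13 to 19 counts per THZ1 library.

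Of 20 genes of mitosis 8 fell (40.0%, against 41.1% of all genes tested), 11 rose (55.0%, against 43.5%) and 1 did not pass the test. The share that fell was thus close to that of all genes tested. The log2 fold changes had a median of 0.23. They ran from NUF2, a kinetochore protein, at −1.62 (adjusted p = 1.8e-15) to CDC20, the activator of the anaphase-promoting complex, at 2.14 (adjusted p = 2.7e-22). E2F-type letters stood in 1 of 33 promoters of the further fork factors, in 1 of 8 of nucleotide supply and in 0 of 16 of mitosis. TTTGAA stood in 8 of 16 promoters of mitosis and, as given above, in 0 of 41 of the licensing and fork genes. These lists were written from general knowledge, and no test between them was made.

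**Figure D5:**
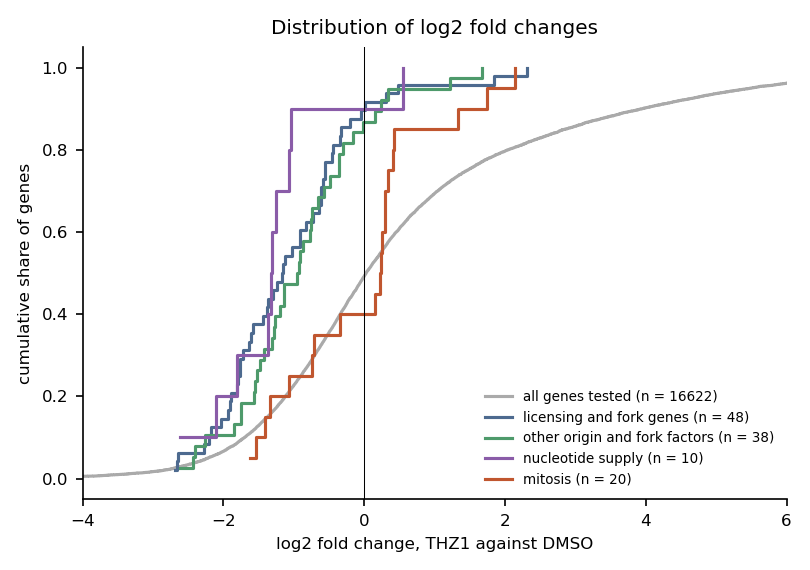
Cumulative share of genes (vertical axis) by log2 fold change with THZ1 against DMSO (horizontal axis) for all 16622 genes tested, the 48 licensing and fork genes, 38 further origin and fork factors, 10 genes of nucleotide supply and 20 genes of mitosis. The curves of the replication genes lie to the left of that of all genes, with medians of −1.16, −0.94 and −1.32, and that of mitosis has a median of 0.23.

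Gene structure was set beside the changes. Over the 48 genes, Pearson's r between the log2 fold change and the log2 of the gene's span was −0.364 (Spearman's rho −0.223), and over 11929 protein-coding genes tested r was −0.334 (rho −0.343). The genes share libraries, so these are descriptions. POLE3 (3441 bases), CDT1 (5470 bases) and POLD4 (6201 bases) are short and rose. FEN1 (4328 bases) and RNASEH2A (7057 bases) are short too, and both fell. PRIM2 (333774 bases) and POLA1 (303114 bases) are the longest, although POLA2, the lowest gene, spans 44047 bases. With the exonic length r was −0.05 over the 48 genes and −0.224 over the protein-coding genes tested.

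Exons of 18 of the 48 genes overlap those of another gene in the count table, for 6 of them on the same strand. PRIM1 shares 139 bases with NACA and FEN1 shares 49 bases with FADS2 on the same strand, and NACA (log2 fold change −0.32) and FADS2 (−1.17) fell too. Also on the same strand, POLD4 shares 650 bases with ENSG00000256514 and POLD1 shares 426 bases with ENSG00000142539, genes that hold 0 counts. GINS4 shares 1145 bases with ENSG00000253174 on the opposite strand, which fell by 2.13 on the log2 scale. DBF4 shares 145 bases with SLC25A40, also on the opposite strand, and SLC25A40 fell by 2.004 on the log2 scale, far more than DBF4 itself. How reads in such bases were assigned is not given in the sources used here, and the values of these genes are uncertain to that extent.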

How the data were processed

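RNA-SEQ libraries of NALM6 cells (3 with DMSO, 3 with THZ1) were analysed. The raw counts per gene were deposited by the authors, who trimmed reads with cutadapt, mapped them to GRCh37 with STAR and counted them with HTSeq. The annotation and strand setting of the counting are not given in the sources used here. A second table deposited by the authors holds log2 FPKM values from RSEM, read as log2(FPKM + 1), and the authors' own log2 fold changes, p-values and FDR values, which were not used. Its values were compared on the log2 scale as deposited.

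Genes were kept by filterByExpr at a minimum count of 10 and a total of 15, then TMM factors were computed and genes were tested with edgeR 4.0.16 (quasi-likelihood, two-sided, Benjamini-Hochberg over 16622 genes) in R 4.3.3. CPM values are TMM-scaled. Each standard error (SE) was worked back from the test, as the absolute log2 fold change divided by the square root of the F statistic. A gene was called at an adjusted p under 0.05, and 1.5 on the log2 scale served as a further threshold. Ratios used a prior count of 2. All 48 genes may be named, those at the ends of each role group, against it or not called with all values, and of other lists only the ends. The members and lists were chosen with earlier results of these data known. DESeq2 1.42.0, limma 3.58.1, other scalings, filters, a replicate block and leaving out each library were tried. The pipeline was tested on simulated data in which few genes changed, with changes in both directions. Most genes were called in the real data, so that test does not check the scaling. Genes were placed with GENCODE on GRCh37, and promoters came from RefSeq on GRCh38.p14 without converting coordinates.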

Additional observations from a re-analysis of the deposited data

How the results depend on the processing

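On counts, 40 to 44 of the 48 genes were lower under the alternatives, 3 to 4 higher and 15 to 22 lower by 1.5 or more on the log2 scale. On the FPKM table, which lists 46 of them, 41 were lower and 2 or 3 higher (2 with log2(FPKM + 0.1)). The median log2 fold change was −1.09 with RLE factors and with DESeq2, −0.962 with upper quartile factors, −1.40 with library sizes alone, −1.02 with a minimum of 10 counts per library and −1.24 with no filter. With limma, over 46 genes, it was −1.23 on the deposited log2 FPKM, −1.25 on log2(FPKM + 0.1) and −1.23 with a mean FPKM of at least 1. ORC1 turned to 0.02 with RLE factors and DESeq2, 0.147 with upper quartile factors and 0.0861 with that minimum. ORC4 turned to −0.24 with library sizes alone, −0.077 with no filter and −0.385, −0.427 and −0.385 in the limma fits, and ranged from −0.0659 to 0.0483 with each library left out. The cause was not tested. On the deposited log2 FPKM the ratios of CDT1 to GMNN, CDC7 to DBF4, POLE to POLE3 and ORC1 to ORC2 shifted by 1.09, −1.64, −2.12 and 1.83, and library scaling cancels in such a ratio. Same-numbered libraries did not deviate together (r = −0.0040, 0.00097 and 0.021), and with the replicate block 42 genes were lower and 4 higher, with a median of −1.15 and no gene changing its call. Counts of 13 to 20 limit the precision of POLD4.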
